A study of Mus musculus with 4 samples.

Results

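The genes described are 34 mouse genes of glucose uptake, glycolysis, lactate and pyruvate handling, the pentose phosphate branch and the hypoxia response. They were taken by symbol from a count table of 53715 genes, and each of the 34 matched 1 row that was used. The libraries came from cells labelled as primordial germ cells, from which eggs or sperm descend, of C57BL/6 mouse embryos at E12.5. They are 2 libraries labelled as a Rif1 knockout (Rif1_KO) and 2 labelled wild type (WT). Rif1 encodes a chromatin protein with roles in the timing of DNA replication and in DNA break repair. All 4 libraries share the strain and the age, and each was made by a modified Smart-seq2 protocol from 1000 magnetically enriched cells. The marker of the enrichment, the sex of the embryos and the form of the knockout allele were not stated in the labels. The labels do not tie the libraries to embryos, so the p-values cover only the variation among these 4 libraries, and that variation may be technical.

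Glycolysis splits glucose into pyruvate in the cytosol. Pyruvate is then either reduced to lactate by lactate dehydrogenase or passed to the mitochondrion, where the pyruvate dehydrogenase complex turns it into acetyl-CoA. Part of the glucose 6-phosphate leaves the pathway at glucose-6-phosphate dehydrogenase, which makes NADPH and feeds the pentose phosphate branch. When oxygen is low, the HIF transcription factors are stabilised and raise the transcription of many of these genes, among them glucose transporters, glycolytic enzymes and pyruvate dehydrogenase kinases. Primordial germ cells use both glycolysis and mitochondrial respiration.

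HIF binds a short core, ACGTG or GCGTG, in the DNA of its targets. In the 250 bases before the annotated starts, RefSeq promoter windows of the build GRCm38.p6 held at least 1 such core on either strand for 30 of the 33 genes matched by symbol (90.9%), which leave out Slc2a3. Of 21 other hypoxia target genes with a window, 20 (95.2%) held a core, and so did 11226 of all 27025 genes with a window (41.5%). Both cores contain CpG, of which the windows of the genes described held a median of 5.6 per 100 bases and all windows a median of 2.4. The promoters of Pgk1 and Ldha are shown because they are textbook HIF targets. The capitals mark the cores or their reverse complements, CACGT and CACGC. A palindrome CACGTG counts on both strands, so that the stretch of Pgk1 holds 2 cores and that of Ldha 5. Ldha has a further window with 1 core, not shown. A match is a description of letters and not of binding.

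Pgk1, chrX:106186950-106187099, plus strand: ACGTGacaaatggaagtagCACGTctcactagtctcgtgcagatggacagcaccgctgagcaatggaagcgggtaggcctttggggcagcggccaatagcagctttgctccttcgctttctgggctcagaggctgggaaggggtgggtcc
Ldha, chr7:46845654-46845803, plus strand: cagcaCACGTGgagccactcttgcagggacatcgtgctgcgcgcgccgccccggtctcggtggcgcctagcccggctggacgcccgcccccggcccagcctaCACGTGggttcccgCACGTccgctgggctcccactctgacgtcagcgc

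The libraries held 12071903 and 14421298 counts under the label Rif1_KO, against 12768932 and 11724630 under the label WT. Rif1 itself was at 85.6 and 63.5 counts per 1000000 (CPM, scaled by TMM factors) in libraries labelled Rif1_KO, against 43.4 and 4.70 CPM in those labelled WT, so its level goes against the labels. Every direction below is therefore one between labels. Summed over 12 germ cell markers, the libraries labelled Rif1_KO held 31.3 and 37.6 CPM, against 49.2 and 457 CPM in those labelled WT. The germ cell helicase Ddx4 had 1.05 and 0.526 CPM in libraries labelled Rif1_KO, against 0.640 and 58.8 CPM in libraries labelled WT. Prdm1 went the other way, with 0.898 and 17.6 CPM under the label Rif1_KO, against 0.274 and 0.320 CPM under the label WT. Of the 9 germ cell markers that were tested, 6 had lower and 3 had higher fitted levels under the label Rif1_KO. Mael was near 0 throughout, with 6 and 0 counts under the label Rif1_KO, against 1 and 2 counts under the label WT. Summed over 15 erythroid genes, the libraries labelled Rif1_KO held 9830 and 4239 CPM, against 137700 and 112300 CPM in those labelled WT, with Klf1 at 0 counts in replicate 2 of Rif1_KO. The 12 stromal genes summed to 1633 and 1354 CPM under the label Rif1_KO, against 561 and 414 CPM under the label WT, with Lum at 0 counts in replicate 2 of WT. Sums of the 12 supporting cell, 9 endothelial and 8 epithelial genes spanned 484 to 503, 84.2 to 183 and 40.6 to 130 CPM under the label Rif1_KO, against 560 to 598, 161 to 327 and 184 to 225 CPM under the label WT. The 10 leukocyte genes stayed at or under 20.2 CPM in sum. The part of these cell types in the results below was not tested. In bulk libraries, fewer cells of a type and less RNA per cell cannot be told apart.

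No gene of the set rose or fell by edgeR's quasi-likelihood test with Benjamini-Hochberg adjustment over all 15466 tested genes, of which 2 passed at 0.05 (0.0129%), both lower under the label Rif1_KO. Of the 34 genes 32 passed the filter on low counts, and Eno2 and Egln3 did not. At an unadjusted p under 0.05, 1 gene was higher under the label Rif1_KO, the pentose branch enzyme G6pdx, and 0 were lower, against 5.35% and 3.05% of all tested genes. DESeq2 called 1 gene of the set, also G6pdx, where 2.31% of all the genes it tested were called higher and 1.35% lower, and limma-voom called 0. Both Rif1_KO values lay above both WT values for 5 genes (15.6%), namely G6pdx, Aldoc, Pfkm, Pfkp and Ldhb, against 21.0% of all tested genes. Both lay below for 6 genes (18.8%), namely Slc2a1, Aldoa, Eno3, Pdha1, Pdhb and Bnip3, against 18.4% of all tested genes. The groups overlapped for the other 21. With RLE factors Pfkp and Ldhb overlapped too, which left 3 genes higher. With upper-quartile factors 7 genes were higher and 4 lower. The shares of separated genes were thus near the background. The median log2 fold change, Rif1_KO over WT, was -0.12 over the 32 genes and -0.11 over all tested genes. Without replicate 1 of WT the median log2 fold change was -0.149 over the set and 0.317 over all tested genes. Without replicate 2 of WT it was 0.127 over the set and 0.285 over all tested genes. With 2 libraries a group, an exact permutation test of a single value cannot give a p under 0.333.

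**Figure D1:**
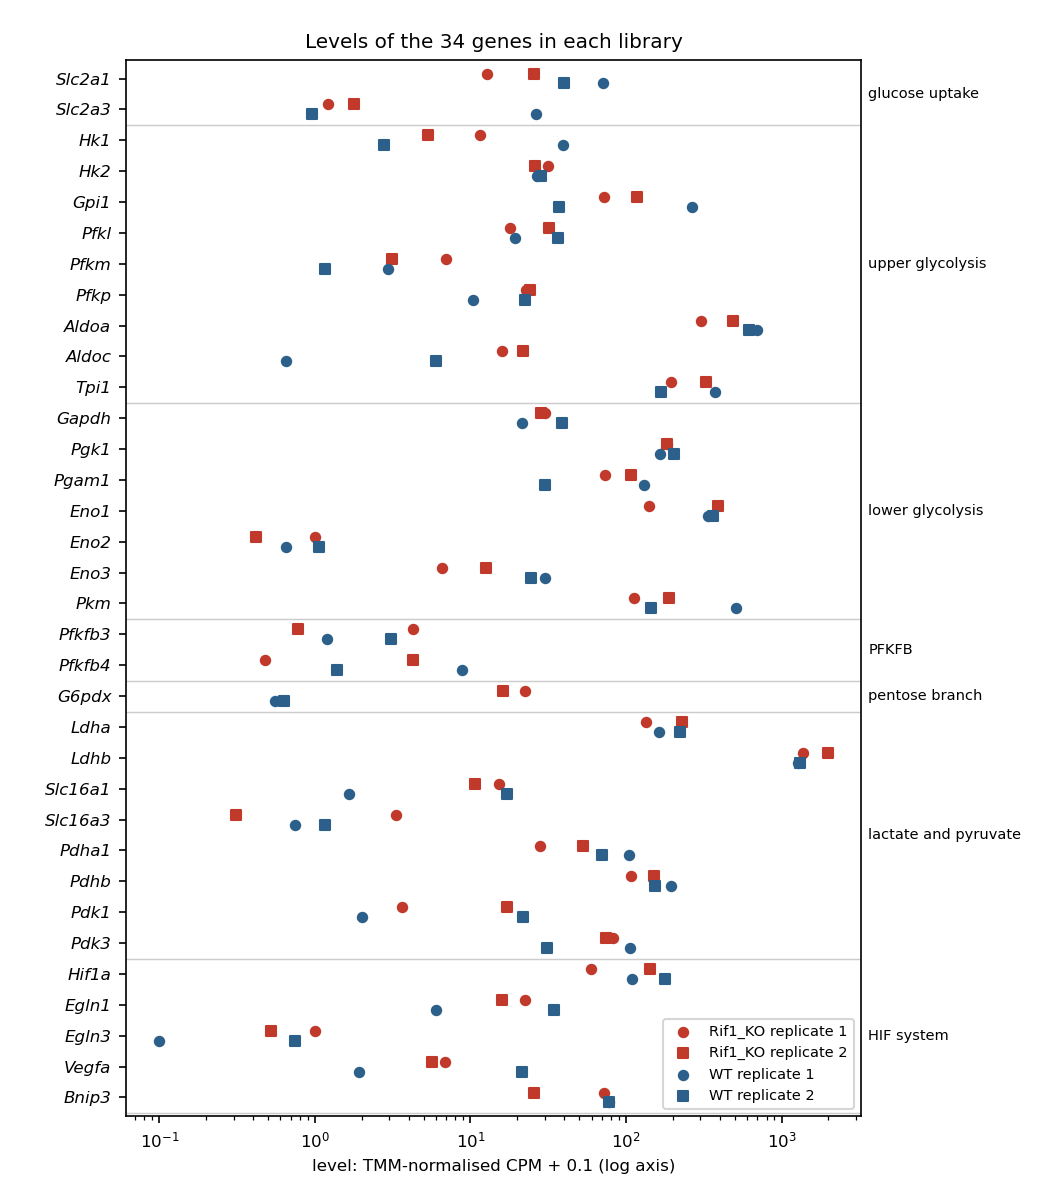
Level of each of the 34 genes in each library, as TMM-normalised CPM plus 0.1 on a log axis, grouped by step of the pathway (red, libraries labelled Rif1_KO; blue, libraries labelled WT; circle, replicate 1; square, replicate 2). The red and blue points of G6pdx stand well apart, Ldhb has the highest points, and for 21 of the 32 tested genes the groups overlap.

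Summed over the 16 glycolytic enzymes, from hexokinase to pyruvate kinase, the libraries labelled Rif1_KO held 1223 and 1955 CPM, against 2631 and 1723 CPM in those labelled WT. The lowest and the highest library had different labels, but the middle values, from replicate 2 of each label, were in the opposite order, so the groups overlapped. The median log2 fold change of the 15 tested enzymes was -0.07. Per kb of gene length, the level averaged over the 4 libraries was highest for Ldhb, with 948 CPM per kb. Aldoa followed with 181, Tpi1 with 96.4 and Pgk1 with 82.1 CPM per kb. The lowest library of Ldhb, at 817 CPM per kb, lay above the highest library of Aldoa, at 240 CPM per kb, while Tpi1 (60.7 to 137 CPM per kb) and Pgk1 (73.6 to 90.5 CPM per kb) overlapped.

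Both glucose transporters had lower fitted levels under the label Rif1_KO. Slc2a1 (ENSMUSG00000028645.11, chromosome 4, 119108711 to 119137983 on mm10) encodes GLUT1, the transporter for basal glucose uptake. It was found at 12.6 and 25.5 CPM in both libraries labelled Rif1_KO, against 71.5 and 39.7 CPM in those labelled WT. The groups did not overlap, and each library differed clearly from its replicate. The log2 fold change was -1.55 ± 0.79 (SE), with an edgeR adjusted p of 0.649. Slc2a3 encodes GLUT3, a transporter of high affinity, and had 1.12 and 1.68 CPM in the libraries labelled Rif1_KO, against 26.4 and 0.854 CPM in those labelled WT. Replicate 1 of WT alone was high, and replicate 2 of WT was the lowest of the 4. Its log2 fold change of -3.27 ± 1.84 (SE; edgeR adjusted p = 0.688) was 0.76 without replicate 1 of WT and -4.22 without replicate 2 of WT, where edgeR's adjusted p was 0.0249.

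**Figure D2:**
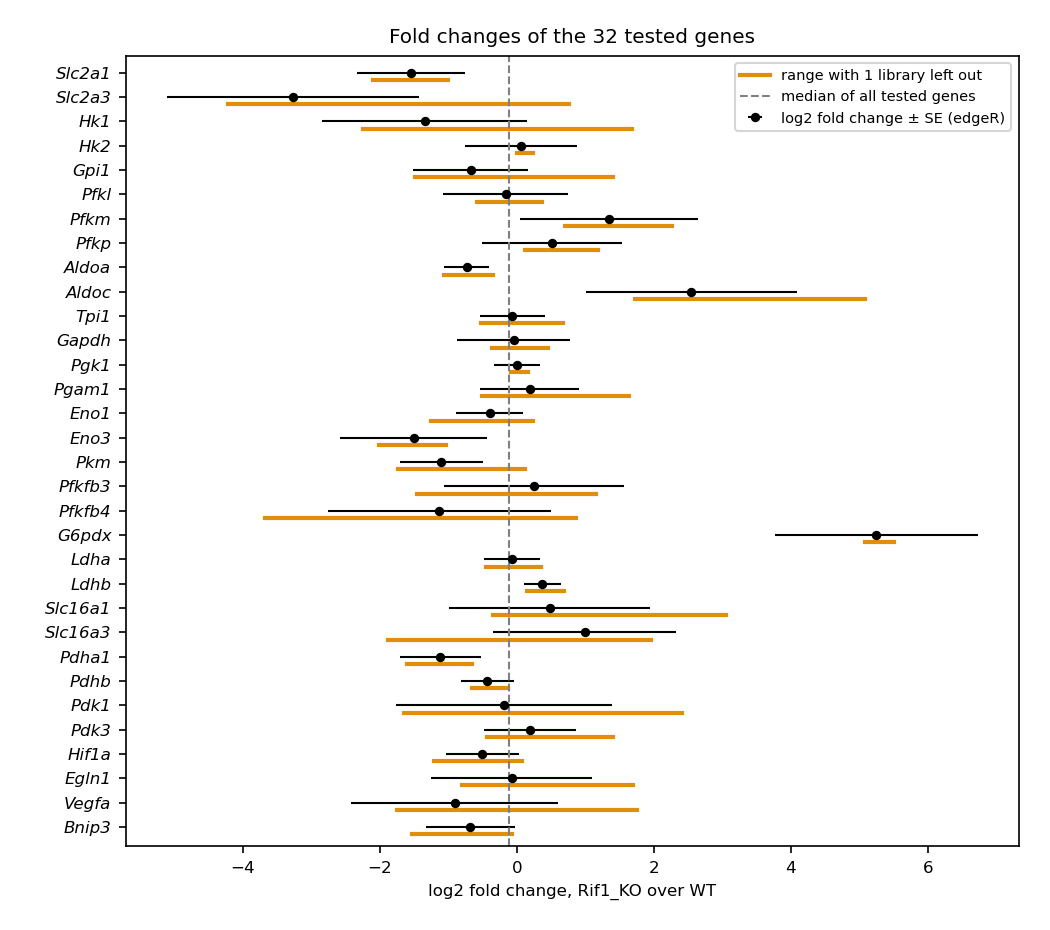
Log2 fold change of the 32 tested genes, Rif1_KO over WT, with its standard error (black) and its range when 1 library is left out (orange); the dashed line is the median of all tested genes, -0.11. The orange ranges of 11 genes keep to one side of 0, and those of the other 21 cross it.

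In upper glycolysis, the steps from hexokinase to triose phosphate isomerase, all 9 genes were tested, the median log2 fold change was -0.07 and single values ran from -1.348 to 2.55. Hexokinase traps glucose in the cell. Hk2, its inducible form, was at 31.3 and 25.9 CPM in libraries labelled Rif1_KO, against 26.6 and 28.5 CPM in those labelled WT. Hk1, the housekeeping form, was at 11.4 and 5.21 CPM in libraries labelled Rif1_KO, against 39.5 and 2.67 CPM in libraries labelled WT. For Hk1 the highest and the lowest value were thus both under the label WT, and its log2 fold change of -1.348 ± 1.498 (SE) was 1.68 without replicate 1 of WT. Gpi1, the isomerase of glucose 6-phosphate, had 72.3 and 118 CPM in the libraries labelled Rif1_KO, against 267 and 37.0 CPM in those labelled WT, again with both extremes under the label WT. Of the exon bases of Gpi1, 11.5% are shared with the opposite-strand gene Gm26762, and the counting did not use strand.

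The phosphofructokinases catalyse the committed step. Pfkm, the muscle form, had 6.88 and 3.05 CPM in the libraries labelled Rif1_KO, against 2.84 and 1.07 CPM in those labelled WT. Pfkp, the platelet form, had 22.5 and 23.9 CPM under the label Rif1_KO, against 10.2 and 22.2 CPM under the label WT. For both genes the 2 Rif1_KO values lay above the WT values, by a narrow margin between the nearest libraries. The log2 fold changes were 1.34 ± 1.30 for Pfkm and 0.52 ± 1.02 for Pfkp (SE; edgeR adjusted p = 0.830 and 0.937). Of the exon bases of Pfkp, 5.58% are shared with Pitrm1 on the opposite strand. Pitrm1 had 593 and 1023 counts in the libraries labelled Rif1_KO, against 149 and 280 counts in those labelled WT. Pfkl, the liver form, overlapped between the labels with 17.7 and 31.8 CPM in Rif1_KO, against 19.2 and 36.3 CPM in WT.

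The aldolases split the phosphorylated sugar, and their values lay in opposite directions. Aldoa (ENSMUSG00000030695.16, chromosome 7, 126795234 to 126800751), the main form of most tissues, had 302 and 487 CPM in the libraries labelled Rif1_KO, against 698 and 617 CPM in those labelled WT. Its mean was 395 ± 131 CPM under the label Rif1_KO and 658 ± 56.9 CPM under the label WT (SD, n = 2 libraries each). The groups did not overlap. The log2 fold change was -0.74 ± 0.33 (SE), with an unadjusted p of 0.0601 and an adjusted p of 0.611 by edgeR's quasi-likelihood test. Aldoc (ENSMUSG00000017390.15, chromosome 11, 78322968 to 78327781), the form known from brain, had 15.9 and 21.7 CPM in the libraries labelled Rif1_KO, against 0.549 and 5.87 CPM in those labelled WT. These levels rest on 212 and 413 counts in libraries labelled Rif1_KO, against 6 and 55 counts in libraries labelled WT. The log2 fold change was 2.55 ± 1.54 (SE), with an edgeR adjusted p of 0.710, and edgeR's adjusted p was 0.0268 without replicate 2 of WT, where the WT value rests on 6 counts. Aldoc has 2 promoter windows in the RefSeq table, each with 1 core of the HIF type. The GCGTG of the upstream window is shown in capitals, and it lies inside the gene model of the count table:
Aldoc, chr11:78323011-78323039, plus strand: ccacctctgaggGCGTGgccttaccctag

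Of the summed level per kb of both aldolases, Aldoc made up 4.47% (95% exact Clopper-Pearson interval 3.90 to 5.10%) and 3.82% (3.47 to 4.203%) in the libraries labelled Rif1_KO. In those labelled WT the share was 0.0701% (0.0257 to 0.153%) and 0.841% (0.634 to 1.09%). The share averaged 4.15 ± 0.458% under the label Rif1_KO and 0.456 ± 0.545% under the label WT (SD, n = 2 libraries each), and a share within a library does not depend on the scaling between libraries. These intervals, like those given below, treat each counted read pair as an independent draw and do not cover variation between libraries. The counts carry no molecular identifiers, so copies made by amplification cannot be told apart and the intervals may be too narrow. Aldoa thus held more than 95% of the pair in every library.

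**Figure D3:**
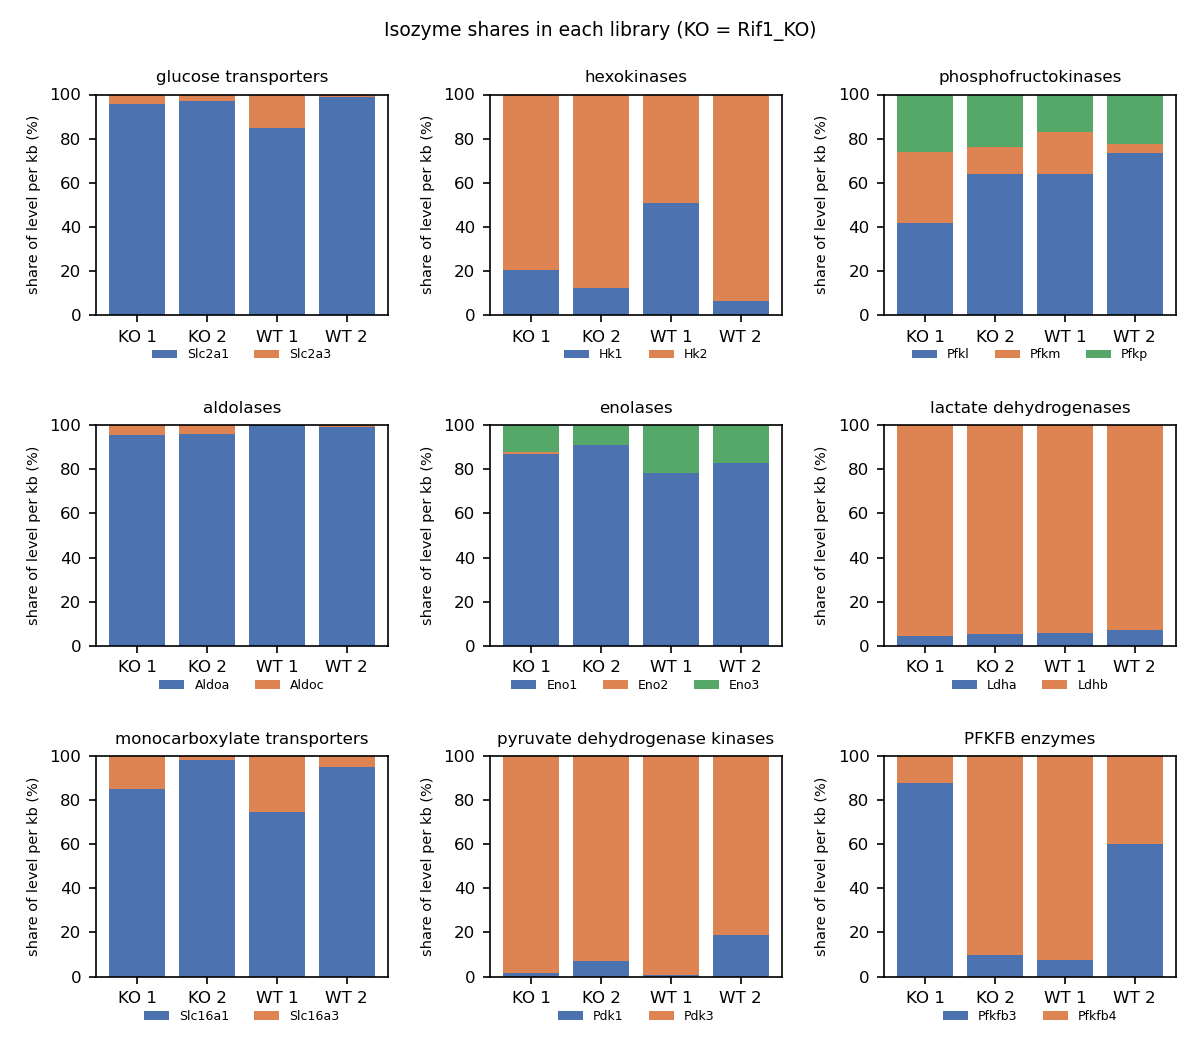
Share of each isozyme in the summed level per kb of its family among the 34 genes, in percent, in the libraries labelled Rif1_KO (KO 1, KO 2) and WT (WT 1, WT 2). Aldoc and Ldhb take larger shares and Eno3 smaller ones in both libraries labelled Rif1_KO, while the shares in the hexokinase and PFKFB families differ widely between replicates of a label.

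The remaining enzyme of the upper part, the triose phosphate isomerase Tpi1, had 194 and 324 CPM in the libraries labelled Rif1_KO, against 376 and 167 CPM in those labelled WT, with both extremes under the label WT. PFKFB enzymes set the level of the activator of phosphofructokinase. Their levels were low: Pfkfb3 had 4.19 and 0.684 CPM in the libraries labelled Rif1_KO, against 1.10 and 2.99 CPM in those labelled WT. Pfkfb4 had 0.374 and 4.15 CPM under the label Rif1_KO, against 8.69 and 1.28 CPM under the label WT. The share of Pfkfb3 in the pair was 87.8% (74.5 to 95.8%) and 9.59% (5.13 to 16.1%) under the label Rif1_KO, against 7.53% (3.91 to 13%) and 60.1% (42.6 to 76.5%) under the label WT (95% exact intervals). Replicates of 1 label thus differed more than the labels, on 40 to 107 counts a library.

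In lower glycolysis, the steps that yield ATP, 6 of 7 genes were tested, with a median log2 fold change of -0.22. Pgk1, a phosphoglycerate kinase whose promoter is shown above, had close values in all 4 libraries. It had 185 and 184 CPM in the libraries labelled Rif1_KO, against 165 and 203 CPM in those labelled WT, and the log2 fold change was 0.00 ± 0.34 (SE). Pgam1, the mutase that follows, had 73.1 and 108 CPM in libraries labelled Rif1_KO, against 129 and 29.98 CPM in libraries labelled WT. Both extremes of Pgam1 lay under the label WT. Pkm, the pyruvate kinase of most tissues, had 113 and 190 CPM in the libraries labelled Rif1_KO, against 509 and 144 CPM in those labelled WT. Its log2 fold change of -1.11 ± 0.61 (SE; edgeR adjusted p = 0.678) was 0.12 without replicate 1 of WT and passed edgeR's test without replicate 2 of WT, so the value rested on replicate 1 of WT. Of the exon bases of Pkm, 15.3% are shared with Gm49759 on the same strand.

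Enolase makes phosphoenolpyruvate. Eno3, the muscle form, had 6.43 and 12.51 CPM in the libraries labelled Rif1_KO, against 29.8 and 24.2 CPM in those labelled WT. The groups did not overlap, and the log2 fold change was -1.51 ± 1.07 (SE; edgeR adjusted p = 0.758). Eno1, the general form, had 141 and 391 CPM under the label Rif1_KO, against 336 and 364 CPM under the label WT, so replicate 1 of Rif1_KO was low and the groups overlapped. Eno2, the neuronal form, had 12 and 6 counts in the libraries labelled Rif1_KO, against 6 and 9 counts in those labelled WT, and was not tested. Of the level per kb of the 3 enolases, Eno3 held 12.3% (95% exact interval 10.04 to 14.8%) and 9.01% (7.97 to 10.1%) in the libraries labelled Rif1_KO. In those labelled WT it held 21.5% (19.6 to 23.5%) and 17.02% (15.1 to 19.0%). The mean share was 10.7 ± 2.32% under the label Rif1_KO and 19.3 ± 3.17% under the label WT (SD, n = 2 libraries each). The size of these shares depends on the gene lengths used, 5379 bases for Eno1 and 1739 for Eno3. It also depends on the genes taken as the family, which leave out Eno1b. Eno1b had 11.5 and 37.6 CPM per kb in the libraries labelled Rif1_KO, against 46.0 and 26.4 CPM per kb in those labelled WT. With Eno1b in the sum, every share would be smaller. By counts Eno3 held 86 of 1982 and 238 of 7674 in the libraries labelled Rif1_KO. In those labelled WT it held 326 of 4007 and 227 of 3650.

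Gapdh, the dehydrogenase often used as a loading control, was low for a glycolytic enzyme in this table. It had 29.8 and 28.1 CPM in the libraries labelled Rif1_KO, against 21.2 and 38.6 CPM in those labelled WT, and per kb it averaged 7.13 CPM, under Tpi1 and Pgk1, the neighbouring steps. The gene lies on chromosome 6, 125161715 to 125166467 (ENSMUSG00000057666.18). The table also holds 195 pseudogenes whose transcripts are at least 90% identical to Gapdh over 200 bases or more, and 30 of them had 10 or more counts. Together they held 1770 and 2680 counts in the libraries labelled Rif1_KO, against 399 and 535 counts for the gene itself. In the libraries labelled WT they held 1949 and 1405 counts, against 232 and 362 for the gene.

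The pseudogene share of this sum was 81.6% (95% exact interval 79.9 to 83.2%) and 83.4% (82.0 to 84.6%) in the libraries labelled Rif1_KO. It was 89.4% (88.0 to 90.6%) and 79.5% (77.6 to 81.4%) in those labelled WT. Most of it lay in few copies: the 5 highest held 6354 counts over the 4 libraries, of which Gm5559 held 2919 and Gm13394 held 2084. Only 5 of the 195 share exon bases with another gene. With such copies the assignment of fragments is uncertain, and the gene row of Gapdh is no full measure of its transcript. With the pseudogene counts added to those of each gene, the log2 fold change of Gapdh was -0.23. It was -0.05 for the gene row with TMM factors and 0.23 with upper-quartile factors. For Eno1, 5 pseudogenes held 10.9% (9.62 to 12.3%) and 10.5% (9.84 to 11.2%) of the sum in the libraries labelled Rif1_KO, against 13.0% (upper bound 14.1%) and 9.25% (8.34 to 10.2%) in those labelled WT. Only genes annotated as pseudogenes were searched, which leaves out Eno1b, a further enolase gene. Eno1b had 270 and 1258 counts in the libraries labelled Rif1_KO, against 883 and 434 counts in those labelled WT. How many of these came from Eno1 transcripts was not tested. For Pgk1, Ldha, Pgam1 and Pkm the share was at most 2.3% in any library.

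**Figure D4:**
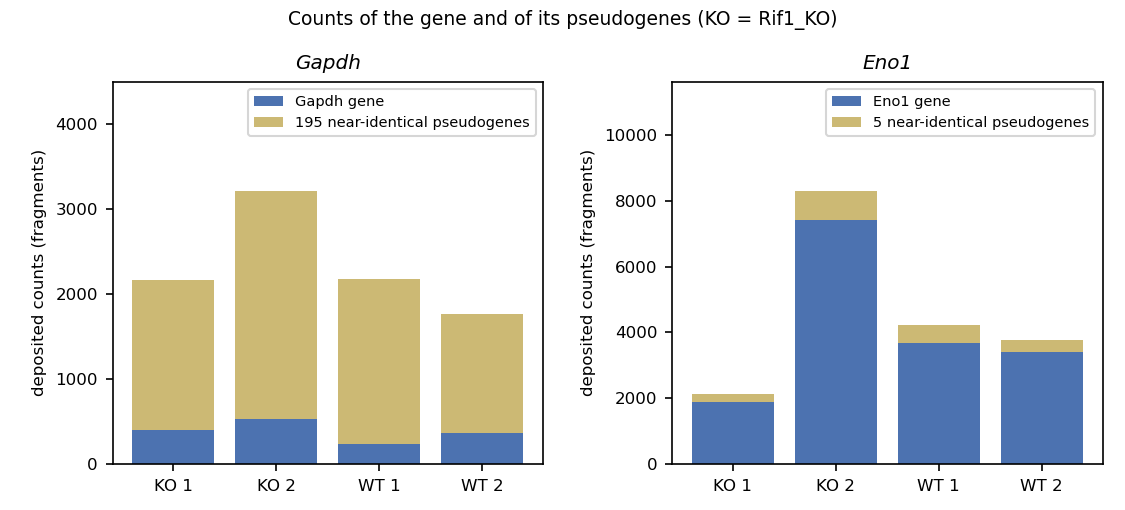
Deposited counts of Gapdh and Eno1 (blue) and of their near-identical pseudogenes (yellow, stacked) in the libraries labelled Rif1_KO (KO 1, KO 2) and WT (WT 1, WT 2). Pseudogenes hold most of the Gapdh bar in every library, from 79.5 to 89.4%, and from 9.25 to 13.0% of the Eno1 bar. The Eno1 bar leaves out the further enolase gene Eno1b.

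G6pdx, glucose-6-phosphate dehydrogenase and the entry enzyme of the pentose phosphate branch, had the largest fitted difference of the 32 genes. The gene (ENSMUSG00000031400.10) lies on chromosome X, 74409483 to 74429194, on the minus strand. It had 22.2 and 16.1 CPM in the libraries labelled Rif1_KO, against 0.457 and 0.534 CPM in those labelled WT. The underlying counts were 297 and 307 under the label Rif1_KO, against 5 and 5 under the label WT. Both libraries labelled Rif1_KO were far above both labelled WT, and replicates agreed closely within each label. The mean was 19.2 ± 4.29 CPM under the label Rif1_KO and 0.495 ± 0.0539 CPM under the label WT (SD, n = 2 libraries each), a ratio of 38.7.

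For G6pdx the log2 fold change was 5.25 ± 1.48 (SE). edgeR's quasi-likelihood test gave an unadjusted p of 0.00965 and an adjusted p of 0.571, and DESeq2 gave an adjusted p of 0.000366. Leaving out 1 library kept the log2 fold change between 5.08 and 5.51. The adjusted p of edgeR was then 0.0149 and 0.0193 without replicate 1 or 2 of WT, and 0.860 and 0.969 without replicate 1 or 2 of Rif1_KO. The call thus depended on the tool and on the libraries. With 5 counts in each library labelled WT, G6pdx passed the filter on low counts only through the libraries labelled Rif1_KO, so that a gene kept this way had to differ, and with at least 10 counts required in all libraries it was not tested. In its exons G6pdx shares 418 bases, or 13.6%, with Ikbkg on the opposite strand, and fragments there counted for both genes. Ikbkg had 199 and 246 counts in the libraries labelled Rif1_KO, against 22 and 407 counts in those labelled WT, so its highest library was one in which G6pdx had 5 counts. A CACGC, the reverse complement of a core, lies in the promoter window of G6pdx and inside its gene model in the count table:
G6pdx, chrX:74428907-74428935, minus strand: tcagtcaaagcaCACGCcctcttgcgtta

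Of the other 11 genes of the pentose phosphate pathway 9 were tested. Of these, 0 passed edgeR's adjusted test, and at an unadjusted p under 0.05 there were 0 higher and 1 lower. The 1 lower gene was Taldo1, the transaldolase of the non-oxidative part. It had 55.9 and 70.6 CPM in the libraries labelled Rif1_KO, against 164 and 170 CPM in those labelled WT, and its log2 fold change was -1.40 ± 0.40 (SE; edgeR adjusted p = 0.571). The groups of Taldo1 were apart and its replicates close. The transketolase Tkt had 49.5 and 43.2 CPM in libraries labelled Rif1_KO, against 56.0 and 89.5 CPM in libraries labelled WT. H6pd, which makes the first step in the endoplasmic reticulum, had 1.72 and 1.63 CPM under the label Rif1_KO, against 0.823 and 0.854 CPM under the label WT. With 9 and 8 counts under the label WT, it passed the filter on low counts only through the libraries labelled Rif1_KO. The median log2 fold change of the 9 genes was -0.09.

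Among the 8 genes of lactate and pyruvate handling, the median log2 fold change was 0.06 and single values ran from -1.12 to 0.99. Ldhb (ENSMUSG00000030246.11, chromosome 6, 142490249 to 142507957), the heart form of lactate dehydrogenase, had 1381 and 1976 CPM in the libraries labelled Rif1_KO, against 1283 and 1316 CPM in those labelled WT. Ldha, the muscle form and a HIF target, had 135 and 230 CPM in libraries labelled Rif1_KO, against 163 and 221 CPM in libraries labelled WT. Ldhb was higher in both libraries labelled Rif1_KO, and Ldha overlapped. The log2 fold change of Ldhb was 0.37 ± 0.27 (SE; edgeR adjusted p = 0.766). Per kb, the ratio of Ldhb to Ldha was 21.6 and 18.1 in the libraries labelled Rif1_KO, against 16.6 and 12.6 in those labelled WT. Ldhb made up 95.6% (95% exact interval 95.4 to 95.8%) and 94.8% (94.6 to 94.9%) of the pair in the libraries labelled Rif1_KO, against 94.3% (94.1 to 94.6%) and 92.6% (92.3 to 93.0%) in those labelled WT. The heart form thus had the higher level per kb in all 4 libraries. The size of the ratio depends on the gene lengths used, 1570 bases for Ldhb and 3310 for Ldha. By counts Ldhb held 18461 of 20262 and 37591 of 41960 in the libraries labelled Rif1_KO. In those labelled WT it held 14025 of 15802 and 12338 of 14406.

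The pyruvate dehydrogenase complex opens the way into the mitochondrion. Pdha1, its X-linked alpha subunit, had 27.8 and 52.4 CPM in the libraries labelled Rif1_KO, against 105 and 69.8 CPM in those labelled WT. Pdhb, the beta subunit, had 107 and 151 CPM under the label Rif1_KO, against 194 and 154 CPM under the label WT. Both subunits were lower in both libraries labelled Rif1_KO, Pdhb by a narrow margin. The log2 fold changes were -1.12 ± 0.59 for Pdha1 and -0.43 ± 0.38 for Pdhb (SE; edgeR adjusted p = 0.662 and 0.817). Pdha1 shares 16.2% of its exon bases with Map3k15 on the opposite strand. Of the kinases that switch the complex off, Pdk3 had 82.5 and 74.5 CPM in the libraries labelled Rif1_KO, against 107 and 30.8 CPM in those labelled WT. Pdk1, the HIF-induced kinase, had 3.52 and 16.98 CPM in libraries labelled Rif1_KO, against 1.92 and 21.6 CPM in libraries labelled WT, so replicate 2 was the higher one under both labels.

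The monocarboxylate transporters carry lactate across the membrane. Slc16a1 (MCT1) had 15.3 and 10.6 CPM in the libraries labelled Rif1_KO, against 1.56 and 16.97 CPM in those labelled WT, where replicate 1 was low. Slc16a3 (MCT4), a lactate exporter, had 3.22 and 0.210 CPM under the label Rif1_KO, against 0.640 and 1.07 CPM under the label WT. Neither gene separated the labels.

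Of the 5 genes of the HIF system 4 were tested, with a median log2 fold change of -0.59, and none passed edgeR's test (adjusted p from 0.827 to 0.995). All 4 fitted values were below 0 with TMM factors, and that of Egln1 was 0.20 with upper-quartile factors. Hif1a, the oxygen-labile subunit of the factor, had 59.4 and 142 CPM in the libraries labelled Rif1_KO, against 109 and 177 CPM in those labelled WT. Egln1, the prolyl hydroxylase that marks it for destruction, had 22.4 and 15.8 CPM in libraries labelled Rif1_KO, against 5.94 and 34.4 CPM in libraries labelled WT. Both genes overlapped between the labels. Egln3, a hydroxylase that HIF itself induces, had 12 and 8 counts in the libraries labelled Rif1_KO, against 0 and 6 counts in those labelled WT, where 0 counts allow up to 0.274 CPM in replicate 1.

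Vegfa, the growth factor of blood vessels, had 6.73 and 5.57 CPM in the libraries labelled Rif1_KO, against 1.83 and 21.3 CPM in those labelled WT, with both extremes under the label WT. Bnip3, a mitophagy receptor and HIF target, had 71.9 and 25.6 CPM under the label Rif1_KO, against 78.1 and 77.9 CPM under the label WT. Replicate 2 of Rif1_KO alone was clearly low for Bnip3. The log2 fold change was -0.68 ± 0.65 (SE; edgeR adjusted p = 0.827), and -0.07 without that replicate. Of its exon bases 22.3% are shared with Gm45507 on the opposite strand.

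The rest of the pathways was read from 104 further genes in 5 lists, of which 82 were tested. None passed edgeR's adjusted test, and at an unadjusted p under 0.05 there were 4 higher and 4 lower (5.35% and 3.05% of all tested genes). DESeq2 called 1 higher and 1 lower. Without replicate 1 of WT edgeR called 6 of 93 tested, where 1345 of all 18746 genes were called. Without replicate 2 of WT it called 10 of 91, where 890 of all 18687 were called. Of the 82 genes, both Rif1_KO values lay above the WT values for 17 (20.7%) and below for 18 (22.0%), against 21.0% and 18.4% of all tested genes. The medians of the lists ran from -0.79 for pyruvate entry to 0.07 for the HIF pathway on the log2 scale.

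**Figure D5:**
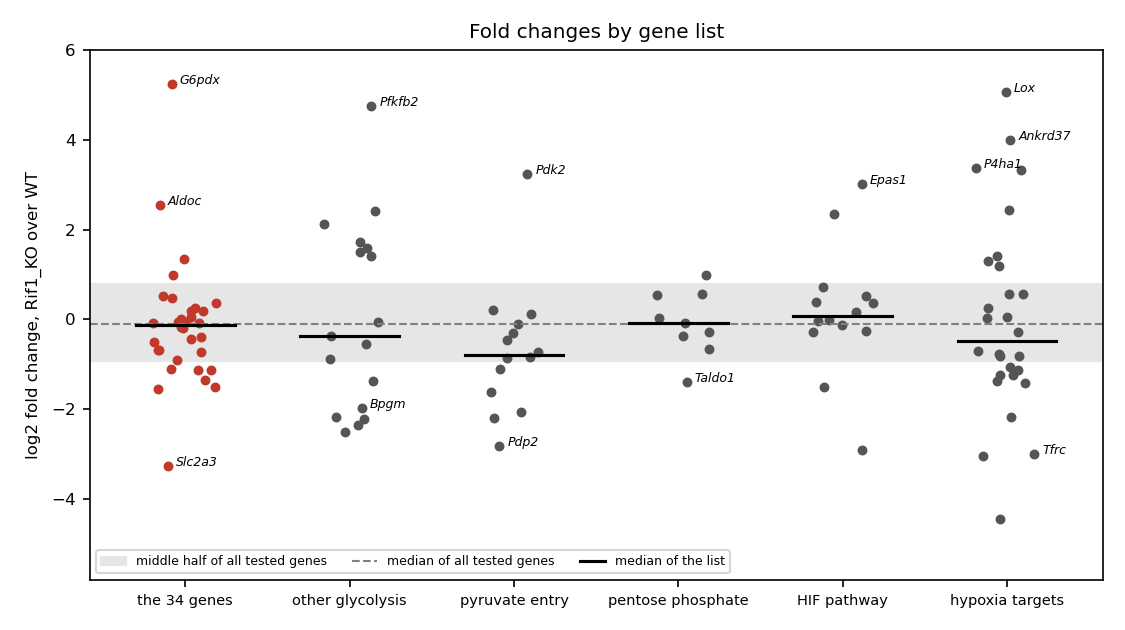
Log2 fold change, Rif1_KO over WT, of each tested gene of the set (red) and of the 5 further lists (grey), with each list's median (bar); the dashed line is the median of all tested genes and the grey band their middle part between the quartiles. List medians run from -0.79 to 0.07, all within the band, while single genes reach from G6pdx and Lox, both above 5, to below -4.

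Among 14 tested genes of pyruvate entry and its partners, 0 were higher and 1 was lower at an unadjusted p under 0.05. Pdp2, a phosphatase that switches the pyruvate dehydrogenase complex on, had 37.7 and 57.3 CPM in the libraries labelled Rif1_KO, against 400 and 266 CPM in those labelled WT. Its log2 fold change was -2.81 ± 0.42 (SE), with an unadjusted p of 0.000332 and an adjusted p of 0.333 by edgeR, and DESeq2's adjusted p was 0.0230. Bsg, the chaperone of the lactate transporters, had 195 and 413 CPM in the libraries labelled Rif1_KO, against 567 and 525 CPM in those labelled WT. Pdk2, a further kinase of the complex, had 4.19 and 33.0 CPM in libraries labelled Rif1_KO, against 2.93 and 0.960 CPM in libraries labelled WT. Pdp2 and Bsg were thus lower and Pdk2 higher in both libraries labelled Rif1_KO. They were named as the 3 of the list with the smallest p, so their separation follows in part from that choice. Pdk2 had 32 and 9 counts under the label WT, and with at least 10 counts required in all libraries it was not tested. Both Rif1_KO values lay below the WT values for 6 of the 14 genes (42.9%), against 18.4% of all tested genes. They lay above for 1 (7.14%), against 21.0% of all tested genes. The share of lower genes was the highest of the further lists, and in the others it ran from 7.14% to 22.2%. Among the 6, Pdhx was apart by a narrow margin, with 15.8 CPM in replicate 2 of Rif1_KO, against 16.0 CPM in replicate 2 of WT. The log2 fold change of Dld, another of the 6, was -0.29 with TMM factors and -0.024 with upper-quartile factors.

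Among 17 tested isozymes and side branches of glycolysis, 0 were higher and 1 was lower at an unadjusted p under 0.05. This was Bpgm, the mutase that makes bisphosphoglycerate in red cells, with 15.6 and 45.9 CPM in the libraries labelled Rif1_KO, against 161 and 80.0 CPM in those labelled WT (log2 fold change -1.97 ± 0.71, SE; edgeR adjusted p = 0.572). The summed erythroid genes were lower under the label Rif1_KO too, and their part in the value of Bpgm was not tested. Pfkfb2 had 230 and 63 counts in the libraries labelled Rif1_KO, against 0 and 7 counts in those labelled WT. Pgm2, a phosphoglucomutase, had 12.9 and 8.25 CPM under the label Rif1_KO, against 2.74 and 1.17 CPM under the label WT. Both genes were higher in both libraries labelled Rif1_KO, without passing the test. With Bpgm they were named as the 3 of the list with the smallest p, so their separation follows in part from that choice. Pfkfb2 passed the filter on low counts only through the libraries labelled Rif1_KO, so that a gene kept this way had to differ. It shares 17.4% of its exon bases with Gm29427 on the same strand.

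In the HIF pathway, 0 of 14 tested genes passed an unadjusted p under 0.05 in either direction. Vhl, the subunit that recognises hydroxylated HIF, had 30.1 and 13.9 CPM in the libraries labelled Rif1_KO, against 69.4 and 54.95 CPM in those labelled WT. Epas1, which encodes the alpha subunit known as HIF-2 alpha, had 2.69 and 14.4 CPM in libraries labelled Rif1_KO, against 0.823 and 1.28 CPM in libraries labelled WT. Arnt2, a dimer partner, had 10.9 and 4.63 CPM under the label Rif1_KO, against 1.74 and 1.28 CPM under the label WT. The groups of these 3 genes did not overlap, but they were named as the 3 of the list with the smallest p. Their separation thus follows in part from that choice. Epas1 had 9 and 12 counts under the label WT, close to the filter on low counts.

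Of 28 tested hypoxia targets outside the 34 genes, 4 were higher and 1 was lower at an unadjusted p under 0.05, against 5.35% and 3.05% of all tested genes, and the list median was -0.49. None of the 4 higher genes reached 10 counts in both libraries labelled WT, so they passed the filter on low counts through the libraries labelled Rif1_KO and their count supports no direction of the list. Tfrc, the transferrin receptor, which red cell precursors use for iron uptake, had 20.6 and 11.9 CPM in the libraries labelled Rif1_KO, against 53.4 and 205 CPM in those labelled WT. The erythroid genes were lower under the label Rif1_KO too, and their part was not tested. Ankrd37, a nuclear ankyrin repeat protein induced by HIF, had 8.68 and 5.78 CPM in the libraries labelled Rif1_KO, against 0.457 and 0.427 CPM in those labelled WT. DESeq2's adjusted p for Ankrd37 was 0.0469 and edgeR's was 0.572. It shares 22.7% of its exon bases with the opposite-strand gene Lrp2bp, which had 49 and 50 counts in the libraries labelled Rif1_KO, against 3 and 7 counts in those labelled WT.

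Lox, which cross-links collagen, had 33 and 206 counts in the libraries labelled Rif1_KO, against 4 and 0 counts in those labelled WT. The other 2 higher genes, P4ha1 and Ak4, were named after their values had been seen. P4ha1, a prolyl hydroxylase of collagen, had 56.7 and 50.7 CPM in the libraries labelled Rif1_KO, against 0.457 and 9.82 CPM in those labelled WT. Ak4, a mitochondrial adenylate kinase, had 7.03 and 3.21 CPM in libraries labelled Rif1_KO, against 0.366 and 0.640 CPM in libraries labelled WT. The stromal genes, collagens among them, were higher under the label Rif1_KO, and their part in the values of Lox and P4ha1 was not tested. The targets named here were chosen for a small p or after their values had been seen. Their separation between the labels follows from that choice and says nothing about the list, whose median was below 0.

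Spread between replicates was wide for the 34 genes, and wider under the label WT. Replicates of Rif1_KO differed by more than 4-fold for 4 of the 32 tested genes, and replicates of WT for 10 (31.2%), where the shares over all tested genes were 16.7% for Rif1_KO and 33.9% for WT. The median absolute log2 ratio between replicates was 0.723 under the label Rif1_KO and 1.011 under the label WT. Over all tested genes it was 0.809 under the label Rif1_KO and 1.197 under the label WT. The 10 genes include Slc2a3 with a ratio of 30.96, Hk1 with 14.8, Vegfa with 11.7, Pdk1 with 11.2 and Slc16a1 with 10.9. Replicate 1 of WT had the highest value of the 4 libraries for 14 of the 32 genes and the lowest for 10. With 1 library left out in turn, 21 of the 32 genes changed the sign of their log2 fold change at least once, and 11 did not.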

How the data were processed

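The authors deposited 1 table of whole-number counts per gene, with 1 column for each of the 4 libraries and no normalization. The submitters' processing notes name HISAT2, SAMtools, Trim Galore, FastQC and featureCounts, and the build mm10. Per the file headers, featureCounts 1.6.2 counted read pairs with a mapping quality of at least 30 on GENCODE M17, without strand, and counted a pair that overlaps several genes for each of them. Counts of overlapping genes and of genes with close copies are uncertain for that reason.

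The genotype label gave the group of each library and its title the replicate number. The replicates of a label differed by more than sampling noise (chi-square per degree of freedom 86.6 for Rif1_KO and 107 for WT). The whole table was fitted with edgeR 4.0.16 in R 4.3.3: TMM factors of 1.11 and 1.32 for Rif1_KO and 0.856 and 0.799 for WT, filterByExpr by group with a minimum count of 10, and the robust quasi-likelihood test, two-sided, with Benjamini-Hochberg adjustment over 15466 genes and a threshold of 0.05. The common biological coefficient of variation was 0.842. Levels (CPM) are counts scaled to a TMM-corrected library total of 1000000, and fold changes are log2 values of Rif1_KO over WT. Their SE was taken as the absolute log2 value over the root of F. Levels per kb use the gene length of the table, so the order of genes, shares and ratios per kb depend on it. Coordinates come from the table and are on mm10. The limit of a count of 0 was taken as 3 counts, between 0.158 and 0.320 CPM. Pseudogenes were found with GENCODE M21 transcripts and blastn 2.17.0. Shared exon bases were found with the exon coordinates deposited with the counts (GENCODE M17). DESeq2 1.42.0 and limma 3.58.1 served as alternatives. The steps were also run on simulated counts, drawn with the common coefficient of variation for every gene. No result given here rests on that run.

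The genes and lists were chosen with earlier results of these data known. Values in every library were given for the member with the highest level per length in each step of the pathway, members at an unadjusted p or DESeq2 adjusted p under 0.05, those with the largest fold changes and members of isozyme families. From each further list, up to 3 genes with the smallest p were named. Of 16 erythroid marker names 15 matched a row. A further row with the symbol Aldoa was not used.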

Additional observations from a re-analysis of the deposited data

How the results depend on the processing

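Of 13 alternatives to the whole fit, 1 was chosen after seeing the data (counts of near-identical pseudogenes added), as were isozyme shares of raw counts. Another scaling moves all genes: over all tested genes the median was -0.11 on the log2 scale with TMM factors, -0.20 with RLE factors (those of DESeq2) and 0.16 when upper quartiles were scaled. The median of the tested genes of the set, -0.12, was -0.20 with RLE factors, 0.14 with upper-quartile factors, 0.23 with no filter on low counts, -0.064 with at least 10 counts in all libraries, -0.20 with DESeq2, -0.038 with limma-voom, -0.069 with the replicate block and -0.18 with pseudogenes added. The median over all genes was -0.10 with no filter, 0.08 with limma-voom and 0.075 with the block, so in these 3 settings the set had the opposite sign. With all 4 libraries, the number called was 1 with DESeq2 and 0 in each other setting. At an unadjusted p under 0.05 (1 higher, 0 lower), 1 was lower with RLE factors, DESeq2 or limma-voom, 2 were higher with DESeq2 or limma-voom, 3 with no filter and 0 with the strict filter. Over all tested genes 8.56% passed with RLE factors, 12.9% with DESeq2, 9.56% with limma-voom, 7.05% with no filter and 6.93% with the strict filter. Separated genes (5 higher, 6 lower) were 3 higher with RLE factors or the strict filter. They were 7 higher and 4 lower with upper-quartile factors, and 7 higher and 2 lower with no filter. In the further lists (4 higher, 4 lower, 0 called), there were 7 higher and 1 called with no filter, 9 higher, 7 lower and 2 called with DESeq2, and 2 higher with the block. Over all genes, edgeR called 2, no filter 54, the strict filter 6, the replicate block 7 and DESeq2 521. By raw counts, the share of Eno3 differed by -3.46 percentage points (-8.61 per kb) and that of Ldhb by 3.15 (1.69 per kb). Scaling cannot change these shares, and the filters, tools and block give no value for them.

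Same-numbered libraries did not deviate together (r = -0.0234), so the numbers are not taken as pairs. With the replicate block, 0 of the 34 genes were called and G6pdx had an edgeR adjusted p of 0.833. The sign turned for Tpi1 (0.001), Gapdh (0.017), Pfkfb3 (-0.088), Pdk1 (0.25) and Egln1 (0.39).

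The sign of a log2 fold change also turned for Hk2 (-0.028) and Pgk1 (-0.08) with RLE factors and with DESeq2, and for Gapdh (0.012) with TMM factors from counts without haemoglobin, mitochondrial and rRNA-region genes. With the strict filter it turned for Tpi1 (0.046), Gapdh (0.052), Ldha (0.031) and Egln1 (0.012). With limma-voom it turned for Tpi1 (0.016), Gapdh (0.042), Pfkfb3 (-0.055), Slc16a3 (-0.011, against 0.99 with edgeR), Pdk1 (0.42) and Egln1 (0.43). With no filter it turned for Pfkl (0.19), Tpi1 (0.22), Gapdh (0.28), Ldha (0.26), Pdk1 (0.24) and Egln1 (0.27). With upper-quartile factors it turned for Pfkl (0.089), Tpi1 (0.20), Gapdh (0.23), Ldha (0.19), Pdk1 (0.033) and Egln1 (0.20). The causes were not tested.

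Leaving out 1 library gave 0 to 4 calls among the 34 genes: G6pdx without replicate 1 of WT, and G6pdx, Aldoc, Slc2a3 and Pkm without replicate 2 of WT, where edgeR called 1345 and 890 genes in all. It gave 0 to 4 higher and 0 to 6 lower at an unadjusted p under 0.05, 7 to 12 separated higher and 7 to 14 lower (fewer libraries overlap less), and a median of -0.27 to 0.13. In the further lists it gave 0 to 8 higher, 3 to 13 lower and 0 to 10 called. The range of the log2 fold change crossed 0 for Slc2a3 (-4.22 to 0.76), Hk1 (-2.25 to 1.68), Hk2 (-0.005 to 0.24), Gpi1 (-1.48 to 1.41), Pfkl (-0.58 to 0.37), Tpi1 (-0.53 to 0.68), Gapdh (-0.37 to 0.46) and Pgk1 (-0.09 to 0.17). It also did for Pgam1 (-0.51 to 1.64), Eno1 (-1.26 to 0.24), Pkm (-1.74 to 0.12), Pfkfb3 (-1.47 to 1.15), Pfkfb4 (-3.68 to 0.86), Ldha (-0.45 to 0.35) and Slc16a1 (-0.34 to 3.06). The rest were Slc16a3 (-1.88 to 1.96), Pdk1 (-1.65 to 2.42), Pdk3 (-0.44 to 1.396), Hif1a (-1.21 to 0.079), Egln1 (-0.80 to 1.69) and Vegfa (-1.74 to 1.75). Low counts limit Eno2, Egln3, Slc16a3 and the PFKFB genes, where 3 counts correspond to 0.158 to 0.320 CPM.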
